A study of Mus musculus with 2 samples.

Results

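The chaperones of the endoplasmic reticulum (ER) and genes of the unfolded protein response (UPR) were examined in cultured fibro-adipogenic progenitors (FAPs), interstitial cells of muscle able to become fat cells or fibroblasts. The group held 10 genes chosen by symbol, Hspa5, Hsp90b1, Calr, Canx, Pdia4, Pdia6, Sdf2l1, Dnajb9, Xbp1 and Herpud1, out of 44291 genes in the table of each library. All 10 were found once, and all 10 passed the filter used here, a mean of at least 1 FPKM over the 2 libraries. FPKM is the number of reads scaled by the exon length of the gene and by all reads assigned to genes.

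Primary wild-type mouse FAPs, sorted by flow cytometry from hindlimb muscle, were given platelet-rich plasma (PRP) or vehicle and were then placed in adipogenic induction medium, which held 20% serum, insulin at 10 μg/ml, dexamethasone at 0.25 μM and IBMX at 0.5 mM. The induction medium was common to both groups. There was 1 library per group, called PRP and control after the labels, and the hours of treatment were not given in the sources used here. The study bought C57BL/6 mice aged 6 to 8 weeks, without saying that these cells came from them. Whether the cells received whole PRP, as labelled, or exosomes isolated from it, as the study's text has it for its transcriptome, is not settled by the labels. With 1 library per group no difference has a replicate check, so no p-value is given, and each interval below is a 95% interval of counting error alone.

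The UPR is the response of a cell to unfolded protein in the ER. The chaperone BiP, encoded by Hspa5, binds unfolded chains and also holds the sensors IRE1, PERK and ATF6 in check. Once released, IRE1 splices the mRNA of Xbp1 into the form that encodes an active transcription factor, PERK phosphorylates eIF2α and so favours translation of ATF4, and ATF6 is cut in the Golgi to a transcription factor. XBP1 and ATF6 raise transcription of chaperones and of ER-associated degradation, whereas ATF4 acts on amino acid supply, redox control and, through CHOP, cell death. Secretory cells that make much collagen, as fibroblasts do, depend on this folding machinery.

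ATF6 and XBP1 act through the ER stress element (ERSE), which is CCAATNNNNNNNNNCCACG, and the related ERSE-II, which is ATTGGNCCACG. Both were searched on both strands of the RefSeq promoter windows of GRCm38.p6, from 250 bases before to 50 bases after each start, and all 10 genes had a window. An ERSE was present in 5 of the 10 genes, against 37 of 27025 genes (0.137%) in the whole table. ERSE-II was present in 1 of the 10, against 12 of 27025 genes (0.0444%). The genes were listed here as known UPR genes, so this is a property of the list and not a result about the treatment.

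The sites are shown because they are the elements of the ATF6 and XBP1 branches found in 6 of the 10 genes. Each is read along the strand of its gene with 5 flanking bases, and capitals mark the fixed bases of the element. They lie at chr2:34772020-34772048 (plus strand, Hspa5), chr10:86705633-86705661 and chr10:86705528-86705556 (minus strand, Hsp90b1), chr8:84847070-84847098 (minus, Calr), chr11:50325795-50325823 (minus, Canx), chr12:17266486-17266514 (plus, Pdia6) and chr8:94386372-94386392 (plus, Herpud1). All are upstream of the gene in GENCODE M21 except that of Hspa5, which falls in an exon of a longer Hspa5 transcript.
Hspa5: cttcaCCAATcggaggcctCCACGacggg
Hsp90b1, distal: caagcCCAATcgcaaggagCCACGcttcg
Hsp90b1, proximal: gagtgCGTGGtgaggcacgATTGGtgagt
Calr: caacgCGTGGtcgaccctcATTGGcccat
Canx: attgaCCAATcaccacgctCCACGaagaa
Pdia6: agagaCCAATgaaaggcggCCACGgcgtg
Herpud1, ERSE-II: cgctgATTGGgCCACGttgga

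The Hspa5 element ended 47 bases before the RefSeq start, and that of Pdia6 ended 80 bases before it. Hsp90b1 carried elements in both orientations, and the Calr element was in the opposite orientation alone. The element TGACGTGG, bound by XBP1, was found in none of the 10 windows and in 0.714% of all genes. The short motif CCACG, which the longer elements contain, was in 9 of the 10 genes and in 35.5% of all genes. No exact ERSE or ERSE-II was found in the windows of Pdia4, Sdf2l1, Dnajb9 and Xbp1. Elements with a mismatch or outside the windows were not searched, so these genes may still carry such elements.

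Several of the ER chaperones were among the most abundant mRNAs of these cells, and the most abundant, Calr and Hsp90b1, were lower in the PRP library. They differed by -403.6 and -327.0 FPKM and made up most of the summed difference. Together the 10 genes summed to 3470 FPKM with PRP and 4352 FPKM in control, a ratio of 0.797. That was 1.01% and 1.28% of all FPKM. By ratio, 7 of the 10 genes were below control and 3 were above it, where 49.1% of all 13401 genes above the filter were below control. The median log2 fold change, computed as log2(PRP FPKM + 1) minus log2(control FPKM + 1), was -0.27 for the 10 genes and 0.01 for all genes.

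**Figure D1:**
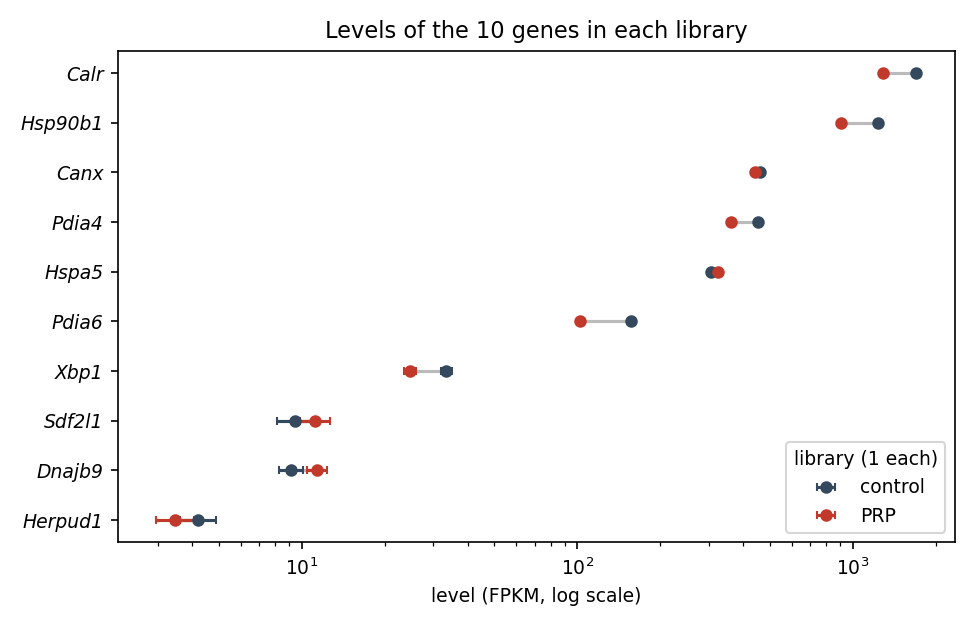
Level of each of the 10 genes in the control and the PRP library (1 library each), in FPKM on a log axis, with bars for the exact Poisson 95% interval of the fragment count. The levels span from 3.48 FPKM for Herpud1 to 1692 FPKM for Calr, and the points of Calr, Hsp90b1, Pdia4, Pdia6 and Xbp1 lie to the left in PRP.

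The HSP90 and HSP70 chaperones of the ER differed in direction. Gene positions here and in what follows are on GRCm38, from GENCODE M21. Hsp90b1 (ENSMUSG00000020048, chr10:86690209-86705509, minus strand) encodes GRP94, the HSP90 of the ER, which folds integrins, Toll-like receptors and insulin-like growth factors. It had 902.9 FPKM with PRP and 1230 FPKM in control. The PRP value was the lower, with a ratio of 0.734 (interval 0.727 to 0.741) from 146057 and 169294 reads. Hspa5 (ENSMUSG00000026864, chr2:34771970-34777547, plus strand), encoding BiP, the HSP70 of the ER, had 324.5 FPKM with PRP and 306.4 FPKM in control. Here PRP was slightly higher, with a ratio of 1.06 (1.04 to 1.08). The level of Hspa5 was thus 0.359 of that of Hsp90b1 in the PRP library and 0.249 of it in the control library. Of the exon length of Hsp90b1, 10.3% is shared with a pseudogene transcribed from the other strand, and whether reads were counted by strand is not stated.

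The lectin chaperones calreticulin and calnexin bind glycoproteins that carry a single glucose and retain them until they are folded. Calr (ENSMUSG00000003814, chr8:84841850-84846934, minus strand), which encodes the soluble calreticulin, was the most abundant of the 10 and ranked 17th among all genes by mean level. It had 1289 FPKM with PRP and 1692 FPKM in control. The ratio was 0.762 (0.754 to 0.769), a difference of -403.6 FPKM. Canx (ENSMUSG00000020368, chr11:50293961-50325673, minus strand), which encodes calnexin, the membrane-bound relative, had 440.9 FPKM with PRP and 459.2 FPKM in control. Its ratio of 0.960 (0.947 to 0.974) was close to 1. Calr therefore stood at 2.92 times the level of Canx in the PRP library and 3.69 times in the control library. A processed pseudogene, Calr-ps, had 0.514 and 1.21 FPKM.

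The protein disulfide isomerases form and rearrange disulfide bonds. Pdia6 (ENSMUSG00000020571, chr12:17266545-17284770, plus strand) encodes the isomerase P5, which also acts on the IRE1 sensor, and was the member furthest below control. It had 102.7 FPKM with PRP and 156.6 FPKM in control. The ratio was 0.655 (0.636 to 0.675), with a log2 fold change of -0.60. Pdia4 (ENSMUSG00000025823, chr6:47796141-47813430, minus strand), which encodes ERp72, had 360.02 FPKM with PRP and 451.4 FPKM in control. Its ratio was 0.798 (0.781 to 0.814). Both isomerases were lower in PRP, and their intervals did not overlap. Pdia6 shares 50 bases, or 1.34% of its exon length, with Atp6v1c2 on the other strand.

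Besides Hspa5, the genes above control were small partners of BiP. Dnajb9 (ENSMUSG00000014905, chr12:44205559-44210326, minus strand) encodes ERdj4, a J-domain protein that brings BiP to misfolded chains and to IRE1 and is a target of XBP1. It had 11.4 FPKM with PRP and 9.16 FPKM in control. The ratio was 1.24 (1.09 to 1.41) from 1162 and 797 reads, the highest of the 10. Sdf2l1 (ENSMUSG00000022769, chr16:17130138-17132383, minus strand), whose product works in a complex with ER J-domain proteins, had 11.2 FPKM with PRP and 9.49 FPKM in control. Its ratio of 1.18 had an interval of 0.973 to 1.44 that included no change.

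The transcription factor gene Xbp1 and the degradation gene Herpud1 were on the lower side. Xbp1 (ENSMUSG00000020484, chr11:5520659-5525893, plus strand) had 24.7 FPKM with PRP and 33.5 FPKM in control, with a ratio of 0.737 (0.689 to 0.789). FPKM per gene does not separate spliced from unspliced Xbp1 mRNA, so the activity of IRE1 on it was not measured. Herpud1 (ENSMUSG00000031770, chr8:94386438-94395377, plus strand) encodes HERP, a membrane protein that organises the HRD1 ubiquitin ligase for ER-associated degradation. It was the least abundant of the 10, with 3.48 FPKM with PRP and 4.22 FPKM in control. From 326 and 336 reads the ratio was 0.826, with an interval of 0.661 to 1.03, and no difference was detectable at this depth.

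**Figure D2:**
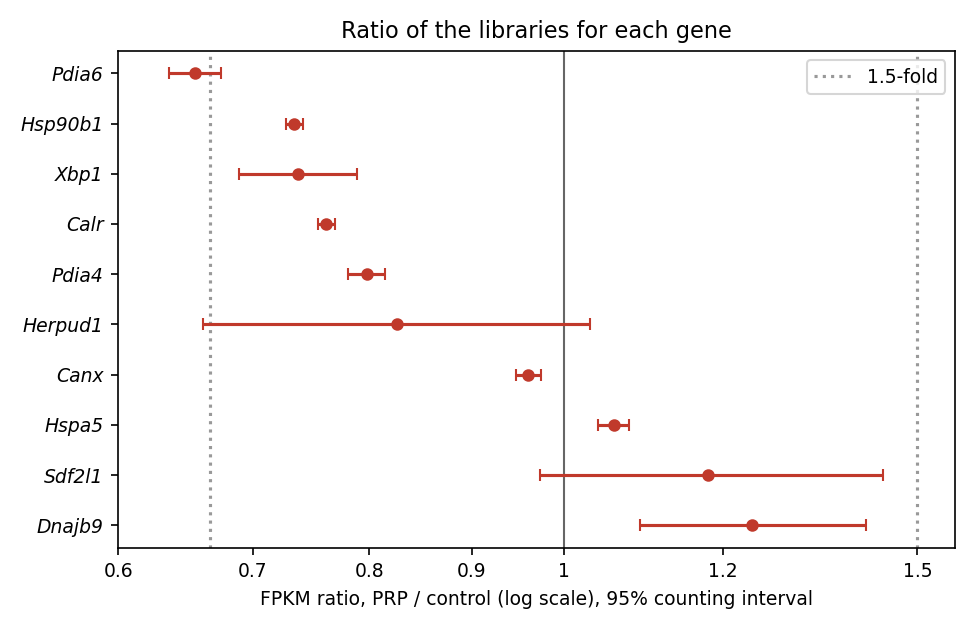
Ratio of FPKM, PRP over control, for each of the 10 genes on a log axis, with bars for the 95% interval of counting error, a solid line at no change and dotted lines at 1.5-fold. Pdia6, at 0.655, is the gene past the dotted line, and the bars of Herpud1 and Sdf2l1 cross the solid line.

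By the threshold of 1.5-fold on the log2(FPKM + 1) scale, 1 of the 10 genes (Pdia6) was lower, against 4.57% of all genes, and none was higher, against 6.15% of all genes. The count of 0 higher genes is a count of values, since no test was run, and the interval of Pdia6 reached across 1.5-fold. Counting error was smaller than the difference for 8 of the 10. The interval lay below 1 for 6 genes (Hsp90b1, Calr, Canx, Pdia4, Pdia6 and Xbp1), against 26.1% of the 12369 genes with an interval. It lay above 1 for 2 genes (Hspa5 and Dnajb9), against 26.2%. High counts make intervals narrow, and 6 of the 10 genes ranked between 17th and 407th by level, so these shares are not like for like.

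In the list of all log2 fold changes in ascending order, Pdia6 stood at percentile 4.2, Hsp90b1 at 8.33, Xbp1 at 9.0, Calr at 10.3 and Pdia4 at 13.9. Herpud1 was at 21.9 and Canx at 41.2. Hspa5, Sdf2l1 and Dnajb9 were at 60.4, 75.8 and 81.2. The log2 fold changes of all genes ran from -2.23 to 4.10.

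**Figure D3:**
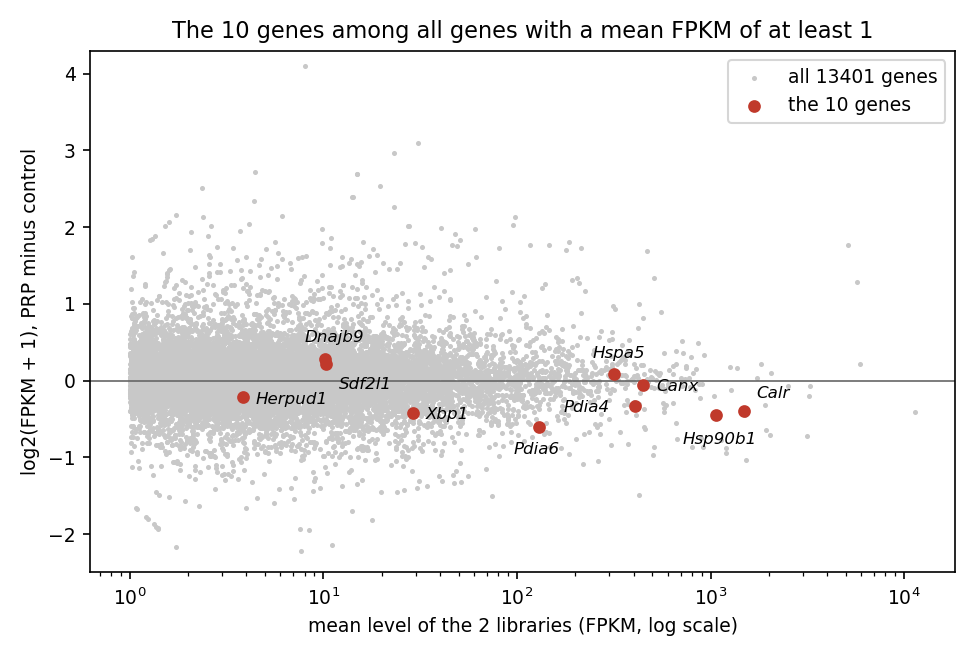
Log2 fold change, PRP minus control, against mean level in FPKM on a log axis for the 13401 genes above the filter (grey) and the 10 genes (red, named). The red points lie between -0.60 and 0.28, and 7 of them are below 0.

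The order of the levels was nearly the same in both libraries. In the control library it ran Calr, Hsp90b1, Canx, Pdia4, Hspa5, Pdia6, Xbp1, Sdf2l1, Dnajb9, Herpud1. The neighbours Canx and Pdia4, and the neighbours Sdf2l1 and Dnajb9, did not differ beyond their counting intervals there. In the PRP library Dnajb9 and Sdf2l1 changed places, again within their intervals, whereas Canx (436.7 to 445.2 FPKM) and Pdia4 (354.7 to 365.4 FPKM) were separate. With 2 libraries no likeness of pattern between genes could be computed.

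Of the sensors and membrane-bound transcription factors, 9 of 10 listed genes passed the filter, with 6 below and 3 above control and a median log2 fold change of -0.22. Of all genes 49.1% were below control. Ern1, which encodes IRE1, had 5.38 FPKM with PRP and 3.24 FPKM in control, a ratio of 1.66 (1.48 to 1.86). It was just past the 1.5-fold threshold (log2 fold change 0.59 against 0.585), and no gene of the list was that much higher when values were centred on the median gene or with a pseudocount of 5. Eif2ak3, which encodes PERK, was lower, at 5.62 against 7.85 FPKM (ratio 0.716, 0.646 to 0.794). Atf6b, a relative of Atf6, had 2.87 against 4.88 FPKM (ratio 0.588, 0.476 to 0.722). Ern1 and its substrate Xbp1 thus lay on opposite sides of control.

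The listed genes of the PERK and ATF4 branch were higher in the PRP library. All 12 listed genes passed the filter and all 12 were above control, where 49.1% of all genes were below it. The median was 0.44, and 5 of the 12 were higher by 1.5-fold or more, against 6.15% of all genes. With a pseudocount of 5 these became 3 genes and a median of 0.28. The interval lay above 1 for 10 of the 12, against 26.2% of all genes at all depths. The intervals of Sesn2 (ratio 1.13) and Ddit4 (ratio 1.17), named after their values were seen, included no change. Ppp1r15a encodes GADD34, which leads a phosphatase to eIF2α, and had 180.8 FPKM with PRP and 52.3 FPKM in control (ratio 3.45, 3.31 to 3.61). Ddit3, which encodes CHOP, had 278.7 against 151.2 FPKM (ratio 1.84, 1.78 to 1.91). A second entry of the same symbol, an upstream reading frame of 105 bases inside Ddit3, had 571.1 against 322.5 FPKM and was not counted again. The stress factor Atf3 had 11.98 against 5.14 FPKM (ratio 2.33, 1.97 to 2.76). Other stimuli than ER stress are also known to raise these genes. The 3 members above control had ratios of 1.06 to 1.24, and the 12 genes of this list had ratios of 1.13 to 3.45. A link between them was not tested.

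Most co-factors of BiP and most isomerases were below control by small amounts. Of 14 co-factor genes above the filter 13 were below control, with a median of -0.17, and the interval lay below 1 for 11 of them, against 26.1% of all genes at all depths. The exception was Hyou1, the exchange factor GRP170, at 22.1 against 19.9 FPKM (ratio 1.11, 1.05 to 1.17), which is named after its value was seen. Dnajc1, which encodes a membrane J-domain protein, was the one past 1.5-fold, at 8.58 against 13.5 FPKM (ratio 0.635, 0.599 to 0.674). Fkbp2 had 67.7 against 87.3 FPKM (ratio 0.775), and Manf, a secreted protein of ER stress, had 51.5 against 61.8 FPKM (ratio 0.833). Among the other isomerases and thiol oxidases 16 of 17 were below control, with a median of -0.12 and none past 1.5-fold. Of all genes 49.1% were below control. The interval lay below 1 for 9 of the 17 isomerases and oxidases, against 26.1% of all genes at all depths, and included no change for 8. Ero1a, the oxidase that recharges the isomerases, had 13.2 against 18.8 FPKM (ratio 0.703, 0.655 to 0.755), and Tmx4 (ratio 0.723) and Selenom (ratio 0.763) were also lower.

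Genes around the calnexin cycle and degradation varied more. In the glycoprotein cycle 6 of 11 genes were below control, near the 49.1% of all genes, with a median of -0.05. The interval lay below 1 for 4, against 26.1% of all genes at all depths. It lay above 1 for 1, against 26.2%, and included no change for 6. Uggt1, the folding sensor that puts glucose back on glycans, had 13.7 against 17.7 FPKM (ratio 0.774), and Mlec, encoding the lectin malectin, had 111.8 against 141.4 FPKM (ratio 0.791). Calr3, a relative of Calr, was higher, at 6.06 against 3.19 FPKM (ratio 1.90). In ER-associated degradation 18 of 26 genes were below control, with a median of -0.08 and none past 1.5-fold. There the interval lay below 1 for 12, above 1 for 3 and included no change for 11. The largest differences were those of the ubiquitin-conjugating enzyme Ube2g2 (ratio 0.673) and of the ubiquitin ligases Stub1 (0.675) and Rnf5 (0.663). Stub1 shares 42.3% and Rnf5 24.7% of their exon length with other genes, so these 2 values are uncertain.

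Most genes for entry to and exit from the ER were below control. In the translocon list, with signal peptidase and oligosaccharyltransferase, 21 of 28 genes were below control, against 49.1% of all genes, with a median of -0.16. The interval lay below 1 for 18 of 27, against 26.1% of all genes at all depths. It lay above 1 for 4, against 26.2%, and included no change for 5. Srpr, the receptor of the signal recognition particle, had 18.03 against 27.1 FPKM (ratio 0.666), while Krtcap2 (ratio 1.51) and Ssr2 (ratio 1.42) were above control. Krtcap2 shares 15.7% and Ssr2 12.8% of their exon length with genes on the other strand, so both are uncertain. Of the COPII coat and ER export genes 18 of 20 were below control, with a median of -0.24. Their interval lay below 1 for 14 of 19, above 1 for 1 and included no change for 4. Sec23a, a subunit of the coat that is needed for collagen export, had 5.93 FPKM with PRP and 14.9 FPKM in control, a ratio of 0.398 (0.360 to 0.440). Sec13 (ratio 0.716) and the KDEL receptor gene Kdelr2 (ratio 0.760), whose product returns escaped chaperones, were next. Sec23a shares 8.91% of its exon length with an antisense gene.

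For the calcium store, which calreticulin and GRP94 help to hold, 10 of 11 genes were below control, with a median of -0.07. The interval lay below 1 for 5 of the 11, against 26.1% of all genes at all depths, and included no change for 6. The calcium-binding proteins led, with Calu at 357.1 against 543.6 FPKM (ratio 0.657, 0.648 to 0.666), Rcn3 at 78.2 against 101.1 FPKM (ratio 0.773) and Rcn1 at 58.1 against 74.3 FPKM (ratio 0.781). Rcn3 shares 16.9% and Calu 8.51% of their exon length with genes on the other strand. Of 8 prolyl isomerases and the collagen chaperone 5 were below control, with a median of -0.12, including Fkbp14 (ratio 0.640) and Fkbp7 (0.727), and Fkbp11 was above it (1.55). These are 9 lists of ER proteins, that of the sensors with Eif2ak3 included. The list of the PERK and ATF4 branch, mRNAs cut by IRE1 and heat shock genes outside the ER were left out. Over the 9 lists 113 of 144 genes (78.5%) were below control, against 49.1% of all genes, with a median of -0.13. The interval lay below 1 for 83 of the 142 with an interval, against 26.1% of all genes at all depths. It lay above 1 for 13, against 26.2%, and included no change for 46. With the 3 lists left out put back, 120 of 172 genes (69.8%) were below control, with a median of -0.11. Of the 170 with an interval, it then lay below 1 for 88, above 1 for 29 and included no change for 53. High counts make intervals narrow, so these shares are not like for like. The lists were drawn up with earlier results of these data known, and no test of a list was run.

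**Figure D4:**
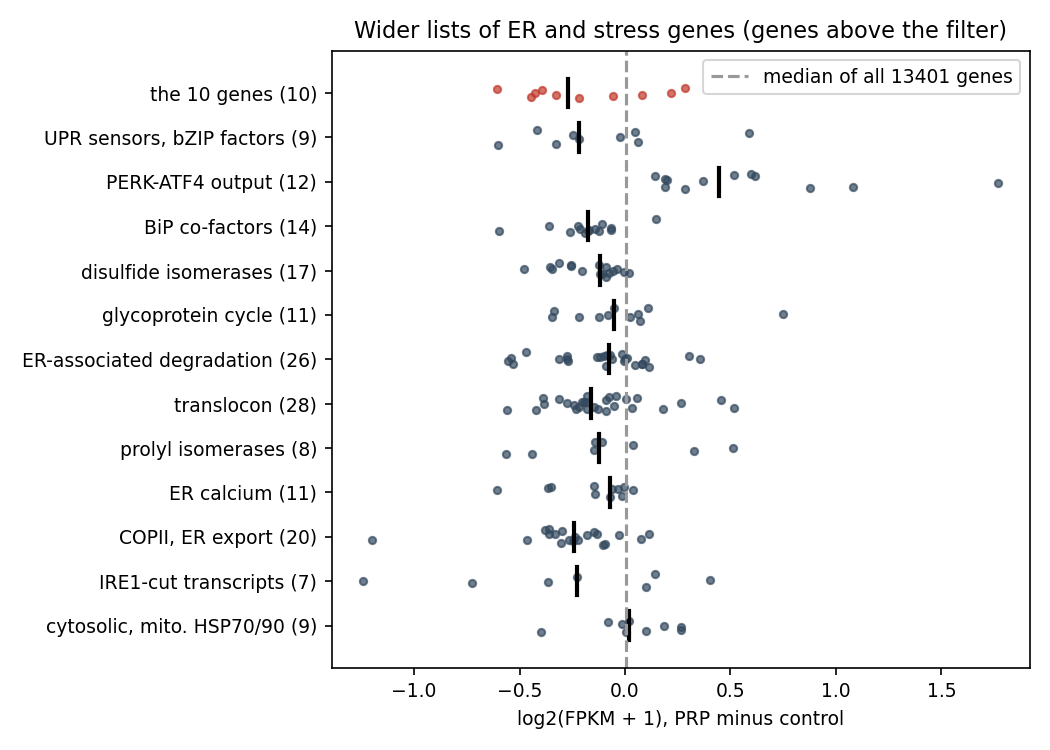
Log2 fold change, PRP minus control, of each gene above the filter (points, with vertical scatter for legibility) in the 10 genes (red) and in 12 further lists (blue), with the median of each list (black bar) and of all genes (dashed line). The PERK and ATF4 genes lie to the right of 0, and the medians of the 10 genes, BiP co-factors, isomerases and export genes lie to the left.

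The libraries held 40120843 and 34139741 assigned reads, and mitochondrial genes took 2.06% of FPKM in PRP and 3.70% in control. All 9 FAP markers above the filter, of 10 listed, were present and lower in the PRP library, with summed levels of 480.5 against 732.2 FPKM. They include the ER cargo Col1a1 (118.6 against 218.7 FPKM) and Col3a1 (26.9 against 53.7 FPKM). Of the 10 adipocyte markers 5 passed the filter, with sums over all 10 of 118.9 and 127.3 FPKM. Their directions differed, with Lpl at 67.4 against 83.3 FPKM and Fabp4 at 40.7 against 33.6 FPKM. The summed levels were 11.4 and 11.4 FPKM for 10 macrophage markers (Cd68 higher at a ratio of 1.98, Lyz2 lower at 0.648), 9.59 and 5.49 FPKM for 8 endothelial markers (Cldn5 at 0), 6.84 and 7.28 FPKM for 7 myogenic markers (Pax7 and Myog at 0), 2.94 and 2.58 FPKM for 8 platelet markers (Ppbp and Gp9 at 0), and 0.0871 and 0.386 FPKM for 6 B and plasma cell markers (Cd79b, Igkc and Pou2af1 at 0). The part of cell makeup in the levels of the 10 genes was not tested, and in a bulk library fewer cells of a type and less RNA per cell cannot be told apart.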

How the data were processed

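RNA-seq was performed on 1 PRP-treated and 1 vehicle-treated culture of FAPs. Per the labels, libraries were made from TRIzol-extracted RNA with a stranded mRNA kit, and the submitters' processing notes name fastp 0.23.4, STAR 2.5.3a, featureCounts and the mm10 build. The authors deposited FPKM per gene, 1 table per library, and how counts became FPKM and whether strand was used are not given in the sources used here. Exon lengths and coordinates were taken from GENCODE M21 (GRCm38), which held 41492 of the 44291 genes (93.7%).

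With those lengths, 26406 of 28160 genes above 0 (93.8%) gave a whole number of reads (tolerance 0.001) in each library, the 10 genes included, which yielded the read totals. Mates appear to be counted separately, so intervals used reads divided by 2, rounded down. Ratio intervals are exact Clopper-Pearson 95% intervals of the PRP share of fragments, and level intervals are exact Poisson ones. They cover counting error only. No count test was run. Fold changes used a pseudocount of 1, which understates the change of low genes, and a mean of at least 1 FPKM.

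The members and lists were chosen with earlier results of these data known. All 10 genes are named, and of each further list the 3 genes with the largest change. Cell marker lists are given as sums. Listed symbols that are older names of another listed gene, and 3 of the cell markers, were not analysed here, and where a symbol had 2 entries the longer was used. Promoters are from RefSeq (GRCm38.p6), with motifs searched on both strands. The protein features that had been planned were not analysed here. Python 3.11.15, NumPy 2.4.6, pandas 2.3.3, SciPy 1.17.1 and matplotlib 3.10.9 were used, and the procedures were tested on simulated data. The alternatives tried were a pseudocount of 0.1 or 5, a mean of at least 5 FPKM or no filter, rescaling to a common sum with or without mitochondrial and top 50 genes, centring, and thresholds of 2-fold and of 20% below or 25% above control on the FPKM + 1 scale.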

Additional observations from a re-analysis of the deposited data

How the results depend on the processing

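Each of the 10 genes kept its direction under every alternative that gave a value, and 7 were below control where all 10 passed. Their log2 fold changes ranged from -0.64 to -0.59 for Pdia6, -0.48 to -0.44 for Hsp90b1, -0.43 to -0.39 for Calr and 0.05 to 0.08 for Hspa5. At thresholds of 20% below control (on the FPKM + 1 scale) and of 2-fold, 5 and 0 of the 10 were lower, against 1 at 1.5-fold. Of all 13401 genes, 1893 were lower at 20% below control and 111 at 2-fold. Over the 12 further lists together, 6 of 172 genes were lower by 1.5-fold and 7 higher, against 4.57% and 6.15% of all genes. The lower ones numbered 3 with a pseudocount of 5, 11 after rescaling on the genes outside the mitochondrial and top 50 ones, 33 at 20% below control and 2 at 2-fold. The higher ones numbered 3 with a pseudocount of 5, 4 at a mean of at least 5 FPKM, 15 at 25% above control and 2 at 2-fold. Of all 13401 genes, 2172 were higher at 25% above control and 268 at 2-fold.

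Of all genes, 612 were lower by 1.5-fold and 824 higher. The lower ones numbered 968 with a pseudocount of 0.1, 205 with 5, 340 at a mean of at least 5 FPKM, 993 after that rescaling, 1893 at 20% below control and 111 at 2-fold. The higher ones numbered 317 with a pseudocount of 5, 410 at a mean of at least 5 FPKM, 2172 at 25% above control and 268 at 2-fold. The median of all genes turned from 0.0065 to -0.0072 after rescaling to a common sum and to -0.0232 after rescaling on the genes outside the mitochondrial and top 50 ones, which also turned the median of the cytosolic and mitochondrial heat shock genes from 0.02 to -0.0124. Depth limits Herpud1 and Sdf2l1, whose intervals include no change. No paired analysis was possible because there is a single library on either side.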

Other observations

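The cytosolic and mitochondrial relatives of the HSP70 and HSP90 chaperones were mixed in direction. Of 9 genes above the filter 3 were below control and 6 above it, with a median log2 fold change of 0.02. Of all genes 49.1% were below control. After rescaling on the genes outside the mitochondrial and top 50 ones, 5 were below control. The mitochondrial HSP70 gene Hspa9 had 394.1 FPKM with PRP and 327.3 FPKM in control (ratio 1.2), and the stress-induced Hspa1a had 10.2 against 8.34 FPKM (1.22). The exchange factor Hspa4 was lower, at 149.9 against 198.2 FPKM (0.757). Hspa1a shares 19.01% of its exon length with another gene and has a near-identical copy, so its value is uncertain. Hsp90b1 stood at 0.424 of the level of the cytosolic Hsp90ab1, a gene chosen after its values were seen, in the PRP library and at 0.617 of it in the control library.

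IRE1 also cuts mRNAs other than Xbp1. Of 7 known substrates above the filter 4 were below control, where 49.1% of all genes were. Their median was -0.23, which was -0.0653 at a mean of at least 5 FPKM. Col6a1, a collagen gene, had 23.1 FPKM with PRP and 55.9 FPKM in control (ratio 0.413), and Scara3 had 2.31 against 4.47 FPKM (0.516). Hgsnat was higher, at 38.04 against 28.5 FPKM (1.33), and Bloc1s1, a well-known substrate named after its value was seen, had 22.4 against 20.9 FPKM (1.07, with an interval of 0.948 to 1.22).

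A look at all genes with an ERSE was added after the data were seen. Of 37 such genes 13 had a mean of at least 1 FPKM, of which 9 were below control and 4 above it, with a median of -0.06. Of all genes 49.1% were below control. Of the 8 genes with an ERSE that are not among the 10 genes, 5 were below and 3 above, with a median of -0.02. They include the ER genes Creld2 (ratio 0.884) and Dnajc3 (0.852), and Syvn1 of the degradation list (0.985). The ratios of the 8 ran from 0.609 for Adcy3 to 1.68 for Alg12 (2.51 against 1.49 FPKM).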
